A study of Mus musculus with 24 samples.

Results

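The genes described are 10 members of the amino acid stress response and of serine synthesis: Atf4, Ddit3 and Trib3 among its regulators, Phgdh, Psat1 and Psph of the serine pathway, Shmt2 and Mthfd2 of mitochondrial folate metabolism, Asns of asparagine synthesis and the cystine importer Slc7a11. They were taken as every probe set of the Mouse 430 2.0 array whose only annotated symbol is a member, which gave 24 of the 45037 probe sets on the array and 10 of the 18193 genes named in that way. A further 2 probe sets name a member together with another gene and were not used. The rule used no measured value, but the members were chosen with earlier results of these data known.

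RNA was measured in the cerebral cortex of 7-day-old male mice on the FVB background, either Fmr1 KO or their WT littermates. The labels call the KO an Fmr1 null and name no other allele, transgene or treatment in either genotype. Each lysate held the cortices of 2 mice of a genotype, with 6 lysates per genotype, and cycloheximide was in the dissection and lysis buffers. Total cytoplasmic RNA came from 20% of each lysate, set aside before the remainder went onto a sucrose gradient. Polyribosomal RNA is a pool of gradient fractions 10 to 13 out of 16, where messages carry at least 6 ribosomes. That gives 4 groups of 6 arrays, 24 in all. Arrays of a genotype with equal replicate number are read below as the same lysate, a match the sample titles do not state. Messages bound by fewer ribosomes lie outside the pool, so the polyribosomal value compares heavy polyribosomes with the whole lysate and gives no count of ribosomes per message. Since 10 micrograms of RNA was labelled for every array, values are shares of the RNA labelled and not amounts per cell. In this bulk tissue, fewer cells of a type and less RNA per cell cannot be told apart.

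As background, kinases that sense stress, among them GCN2 (Eif2ak4), which senses uncharged tRNA, phosphorylate the initiation factor eIF2 and slow general translation. The Atf4 message carries upstream reading frames that let its own translation rise under those conditions, and the ATF4 protein then switches on enzymes that make or import amino acids. Ddit3 (CHOP) is a partner factor induced by ATF4, and Trib3 is a pseudokinase that restrains it. Serine is made from a glycolytic intermediate by Phgdh, Psat1 and Psph in turn, and its side-chain carbon enters the folate cycle through Shmt2 and Mthfd2. In brain, Phgdh is known for its high level in astrocytes and radial glia, which supply serine to neurons.

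The DNA sequence by which ATF4 and its C/EBP partners are known to act is an amino acid response element, written TGATGNAA, and promoters were searched for it because the members are grouped as ATF4 targets. It was looked for on both strands of the RefSeq promoter windows of GRCm38.p6, each 300 bases long from 250 bases before to 50 after a start site. Of the 10 members, 3 had a match, against 4.51% of all 27025 genes with a window, and all 4 matches are shown with the element in capitals. The Asns match lies 23 bases upstream of the start at chr6:7693214-7693243 (minus strand), and the Slc7a11 matches lie 66 bases upstream at chr3:50443661-50443690 (minus strand, that of the gene) and 47 bases upstream at chr3:50443642-50443671 (plus strand). The Trib3 match lies 15 bases after the start at chr2:152344028-152344057 (plus strand, opposite to the gene).
Asns: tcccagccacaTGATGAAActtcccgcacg
Slc7a11, site 1: tctcatgtggcTGATGCAAacctggagaat
Slc7a11, site 2: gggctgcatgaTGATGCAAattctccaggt
Trib3: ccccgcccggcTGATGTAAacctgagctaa
The form with C at the open position, TGATGCAA, was in both Slc7a11 sites and in 1.03% of all genes. In the other genes of the pathway described further on, TGATGNAA was found for 10 of 74 with a window (13.5%), among them Atf3, Chac1, Herpud1 and Vldlr. A match is a description of letters in the window and no measure of binding, and no match says only that these letters are not in the window.

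Values are log2 intensities as deposited by the authors. The median of all probe sets on an array was between 3.17 and 3.20, and 38.8% to 40.0% of probe sets reached a log2 value of 4, the floor set for a test in at least 6 of the arrays compared. Arrays of a group correlated at 0.991 to 0.998. Fmr1 was at 9.90 ± 0.21 (SD, n = 6) in WT polyribosomal RNA and at 6.19 ± 0.48 (n = 6) in Fmr1 KO polyribosomal RNA, a 13.1-fold difference, and 9.69-fold lower in KO total RNA, with no overlap (exact permutation test, two-sided, p = 0.00216 in each RNA, the smallest that 6 against 6 arrays allow). Of the marker lists, 5 of 5 neuronal, 4 of 4 excitatory neuronal and 8 of 8 astrocyte markers had group means of at least 4 in every group, against 1 to 2 of 6 microglial and 0 of 2 blood markers. Of 5 markers of other brain regions, 3 to 4 reached 4, with Drd1, a dopamine receptor gene of striatum that cortex also expresses, at 7.02 in WT polyribosomal RNA. The part of other regions in the tissue was not tested. The markers of choroid plexus and meninges, of which 1 to 2 of 5 reached 4, differed most between lysates, with summed levels from 5.52 to 12.21 on the log2 scale.

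Of the 24 member probe sets, 18 from 9 genes passed the floor in at least 1 comparison and 6 passed in none. Trib3 was never tested. A probe set whose name ends in _x_at or _s_at, as 11 of the 24 do, may bind related transcripts. Every Phgdh probe set is of the _x_at kind. The brightest probe sets of Atf4, Asns and Shmt2 are of that kind too, and that of Psat1 is of the _s_at kind. The brightest probe set stands for a gene below, with its other tested probe sets beside it.

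The first question the design puts is which messages are found on heavy polyribosomes more or less than their level in the lysate. The enzymes of serine synthesis, mitochondrial folate metabolism and asparagine synthesis were higher in polyribosomal than in total RNA in both genotypes, while the transcription factors Atf4 and Ddit3 were lower. In WT, 13 of the 18 member probe sets were called higher, 3 lower and 2 neither (limma with the lysate as a block, adjusted p under 0.05). Of all 17893 probe sets tested, 36.2% were called higher and 29.1% lower, so calls in either direction are common (65.4%). The members' median difference was 0.52 on the log2 scale, against 0.07 for all probe sets tested. Polyribosomal and total arrays did not overlap for 12 of the 18, against 38.8% of all. Fmr1 KO gave 13 higher, 3 lower and 2 neither, with a median of 0.44 against 0.07, where 37.2% of all were called higher and 28.7% lower (65.9% either way), and 10 of 18 did not overlap, against 40.4%. These KO counts include Shmt2 probe set 3, which passed the floor in KO only through its polyribosomal arrays. By gene, 6 were higher, 2 lower and 1, Slc7a11, was not called in either genotype. For each of the 9 genes, both polyribosomal group means lay on the same side of both total means, and within each kind of RNA the WT and KO arrays overlapped.

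**Figure D1:**
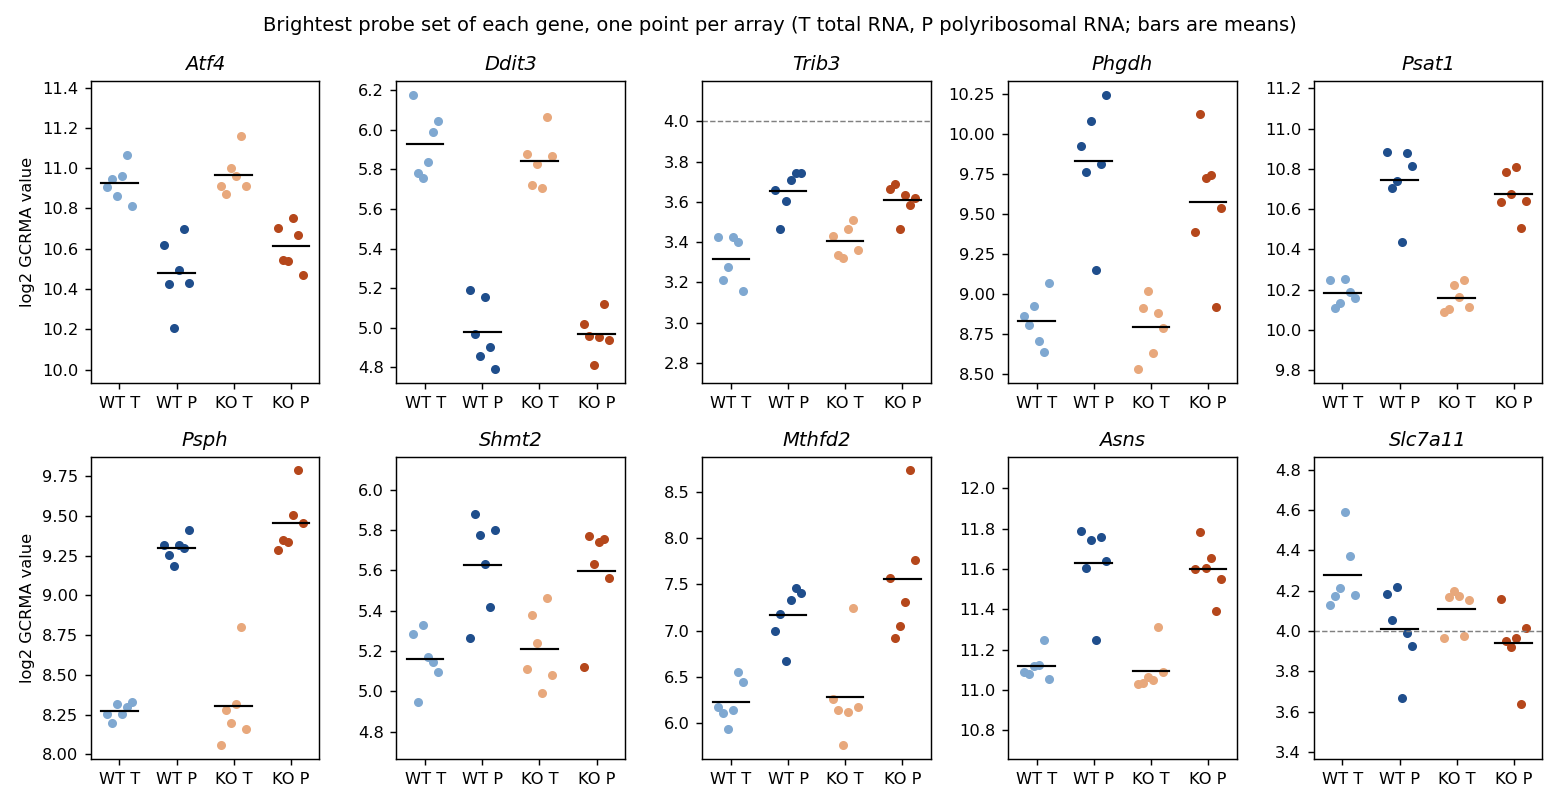
Log2 intensity of the brightest probe set of each of the 10 genes on every array (y axis, own range in each panel) by group (x axis: T total, P polyribosomal, 6 arrays each), with bars at the group means and a dashed line at the floor of 4 where it falls in range. Atf4 and Ddit3 sit lower in polyribosomal RNA, the synthesis enzymes sit higher, and Trib3 stays under 4 on all 24 arrays.

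Atf4, the transcription factor at the centre of the response, was lower on heavy polyribosomes in each of the 12 lysates. Its brightest probe set ran from 10.81 through a median of 10.93 to 11.06 in WT total RNA and from 10.21 through 10.46 to 10.70 in WT polyribosomal RNA. Fmr1 KO total arrays ran from 10.87 through 10.93 to 11.16, and KO polyribosomal arrays from 10.47 through 10.60 to 10.75. No polyribosomal array reached any total array of its genotype. The difference was -0.45 (SE 0.08, limma adjusted p = 0.000606) in WT, 1.36-fold lower, and -0.36 (SE 0.08, adjusted p = 0.002) in KO, 1.28-fold lower. The second Atf4 probe set, which is not of the _x_at or _s_at kind, gave a larger difference, -0.85 in WT and -0.88 in KO. Its medians went from 7.65 and 7.76 in total to 6.97 and 6.93 in polyribosomal RNA. The probe sets thus shared their direction and differed in size. Atf4 probe set 3 stayed under 4 on all arrays.

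Ddit3 encodes CHOP, a C/EBP-family factor that partners ATF4 in prolonged stress. Total RNA values in WT spanned 5.75, 5.91 and 6.18 (lowest, median, highest), and polyribosomal values spanned 4.79, 4.94 and 5.19. KO total arrays spanned 5.71, 5.85 and 6.07, and KO polyribosomal arrays 4.81, 4.96 and 5.12. Total and polyribosomal arrays stayed apart by more than 0.5 in both genotypes. Ddit3 was 1.94-fold lower in WT (-0.95, SE 0.09, limma adjusted p = 5.67e-06) and 1.84-fold lower in KO (-0.88, SE 0.08, adjusted p = 2.16e-06), with all 6 lysates lower in each. Its other probe set was under 4 throughout.

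Trib3, the pseudokinase that restrains ATF4 and CHOP, gave no value above the floor. The brighter probe set ran from 3.16 to 3.43 in WT total and from 3.47 to 3.74 in WT polyribosomal RNA, and from 3.32 to 3.51 and from 3.46 to 3.69 in KO. Its polyribosomal value was the higher in all 12 lysates, by 0.07 to 0.59, but at this brightness the array gives no dependable level and no test was made. The dimmer probe set had group means between 2.73 and 2.97.

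Phgdh, the dehydrogenase that commits the glycolytic intermediate to serine, was higher on heavy polyribosomes by about 2-fold in WT. WT total arrays ran from 8.64 through a median of 8.83 to 9.07, and WT polyribosomal arrays from 9.15 through 9.87 to 10.24. KO total arrays ran from 8.53 through 8.83 to 9.02, and KO polyribosomal arrays from 8.92 through 9.63 to 10.13. The groups were apart in WT and overlapped in KO, where the polyribosomal array of lysate 5 lay at 8.92 and the next lowest at 9.39. The difference was 1.00 (SE 0.11, limma adjusted p = 1.15e-05, 2.00-fold) in WT and 0.78 (SE 0.13, adjusted p = 0.000316, 1.72-fold) in KO. The other 3 tested probe sets gave 0.67 to 0.84 in WT and 0.38 to 0.59 in KO, each called higher, although the dimmest of them was no longer called in KO without lysate 4 (0.31, adjusted p = 0.0508). In WT, lysate 4 gave the smallest difference, 0.45, against 0.96 to 1.18 in the other 5. KO lysate 5 gave 0.04, against 0.71 to 1.22 in the other 5. Without lysate 4 the WT difference was 1.11, and without lysate 5 the KO difference was 0.93.

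Those same polyribosomal arrays held the least astrocyte marker signal. The summed level of the 8 astrocyte markers was 12.63 in WT polyribosomal lysate 4, against 13.13 to 13.41 in the other 5, and 12.58 in KO polyribosomal lysate 5, against 12.92 to 13.29. Over all arrays it spanned 12.63 to 13.41 in WT polyribosomal, 12.58 to 13.29 in KO polyribosomal, 12.59 to 12.99 in WT total and 12.59 to 13.14 in KO total RNA, and no astrocyte marker had a mean under 4. The shift was neither limited to astrocyte markers nor shared by all lists. These arrays also held the lowest neuronal sums of their groups (15.30 and 15.28, next lowest 15.34 and 15.33), the lowest sums of endothelium and pericytes (6.72 and 6.42) and the second lowest of radial glia and progenitors (11.69 and 11.73). Sums of excitatory neurons and of other brain regions ranked 4 from the highest in both, and oligodendrocyte sums 3 and 4. The interneuron sum ranked 3 in WT and was the lowest in KO (12.10). The microglial sum of WT polyribosomal lysate 4 was the highest of its group (7.03), and that of KO polyribosomal lysate 5 ranked 4 (6.85). Blood sums, under the floor, ranked 6 and 3. Both arrays held the highest sums of choroid plexus and meninges of their groups, at 12.21 and 12.16. The part of any marker list in the Phgdh values was not tested.

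Psat1, the aminotransferase of the middle step, had WT total values of 10.11, 10.17 and 10.25 (lowest, median, highest) and polyribosomal values of 10.44, 10.78 and 10.88. KO total arrays spanned 10.09, 10.14 and 10.25, and KO polyribosomal arrays 10.51, 10.66 and 10.81. Neither genotype showed overlap. The difference was 0.56 (SE 0.09, limma adjusted p = 0.000234, 1.48-fold) in WT and 0.52 (SE 0.08, adjusted p = 0.000181, 1.43-fold) in KO. A second probe set gave 0.65 and 0.67. Lysate 4 of WT (0.18) and lysate 5 of KO (0.26) again gave the smallest differences.

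Psph, the phosphatase that releases serine, varied little between lysates in WT. WT total arrays lay between 8.20 and 8.33 with a median of 8.28, and WT polyribosomal arrays between 9.19 and 9.41 with a median of 9.31. In KO the total arrays lay between 8.06 and 8.80 (median 8.24), and the polyribosomal arrays between 9.29 and 9.79 (median 9.40). No polyribosomal array overlapped the total arrays in either genotype. Psph was 2.03-fold higher in WT (1.02, SE 0.08, limma adjusted p = 8.80e-07) and 2.22-fold higher in KO (1.15, SE 0.08, adjusted p = 3.31e-07). Its difference by lysate was 0.87 to 1.08 in WT and 0.98 to 1.30 in KO. The smallest difference came from lysate 3 in WT and, as for Phgdh and Psat1, from lysate 5 in KO.

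Shmt2, the mitochondrial enzyme that passes the serine carbon to folate, was nearer the floor. WT total arrays ran from 4.95 through 5.16 to 5.33 and polyribosomal arrays from 5.26 through 5.70 to 5.88. KO total arrays ran from 4.99 through 5.17 to 5.46 and polyribosomal arrays from 5.12 through 5.69 to 5.77. The groups overlapped in both genotypes. Shmt2 was called higher, by 0.47 (SE 0.12, limma adjusted p = 0.00437) in WT and 0.39 (SE 0.10, adjusted p = 0.00412) in KO. Its difference by lysate was -0.02 to 0.93 in WT, where 5 of 6 were above 0, and 0.009 to 0.75 in KO. Lysate 1 gave the smallest in each genotype. Of its dimmer probe sets, probe set 3 was called higher (0.35 and 0.34) and probe set 2 was not (0.17, adjusted p = 0.109, and 0.18, adjusted p = 0.0804). Probe set 3 reached 4 on 3 of 6 WT total and 0 of 6 KO total arrays, so its lower side is close to background. In KO it passed the floor only through its polyribosomal arrays, so its KO call adds no support. Probe set 4 was under 4 everywhere.

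Mthfd2, the mitochondrial dehydrogenase and cyclohydrolase that follows Shmt2, was higher on heavy polyribosomes in all 12 lysates. WT total arrays ran from 5.93 through 6.16 to 6.55 and polyribosomal arrays from 6.67 through 7.25 to 7.46, with no overlap. KO total arrays ran from 5.76 through 6.15 to 7.24 and polyribosomal arrays from 6.92 through 7.44 to 8.73. Their overlap came from lysate 5, whose total array lay at 7.24 with the other 5 at or below 6.26. The difference was 0.95 (SE 0.09, limma adjusted p = 3.58e-06, 1.93-fold) in WT and 1.28 (SE 0.10, adjusted p = 1.31e-06, 2.43-fold) in KO. The second probe set gave 0.53 and 0.65. Without lysate 5 the KO difference was 1.24.

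Asns, which makes asparagine from aspartate and glutamine, had WT total values of 11.05, 11.10 and 11.25 (lowest, median, highest) and polyribosomal values of 11.25, 11.69 and 11.79. KO total arrays spanned 11.03, 11.06 and 11.31, and KO polyribosomal arrays 11.39, 11.60 and 11.78. The WT groups touched at a single pair of arrays, polyribosomal lysate 4 and total lysate 5, and the KO groups did not overlap. The difference was 0.51 (SE 0.09, limma adjusted p = 0.000531, 1.43-fold) in WT and 0.50 (SE 0.09, adjusted p = 0.000629, 1.42-fold) in KO. The second probe set gave 0.51 and 0.37. Differences were smallest in WT lysate 4 (0.12) and KO lysate 5 (0.08), as for Phgdh.

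Slc7a11, the cystine and glutamate exchanger that feeds glutathione synthesis, was at the floor. WT total arrays ran from 4.13 through 4.20 to 4.59, WT polyribosomal from 3.67 through 4.02 to 4.22, KO total from 3.96 through 4.16 to 4.20 and KO polyribosomal from 3.64 through 3.96 to 4.16. All neighbouring groups overlapped. The difference between polyribosomal and total RNA was -0.27 (95% interval -0.54 to -0.0005, adjusted p = 0.0725) in WT and -0.17 (-0.36 to 0.03, adjusted p = 0.115) in KO by limma, and neither was called. Without the lysate as a block, the WT difference was called (adjusted p = 0.0400). Its other probe set stayed under 4.

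**Figure D2:**
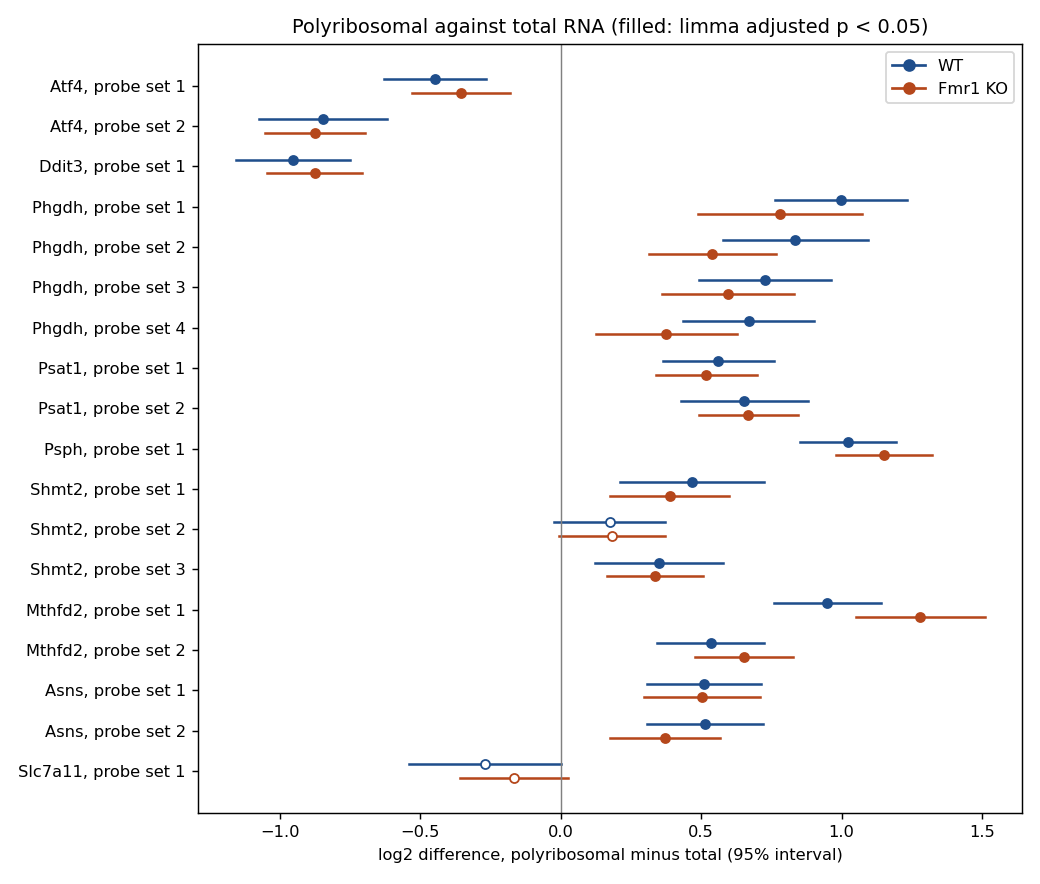
Log2 difference between polyribosomal and total RNA (x axis, with 95% intervals from limma) for the 18 tested probe sets (y axis), in WT (blue) and Fmr1 KO (orange), filled where adjusted p was under 0.05. The 3 Atf4 and Ddit3 probe sets lie between -0.95 and -0.36, and the called probe sets of the enzymes lie between 0.34 and 1.28.

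The second question is whether loss of Fmr1 changed these messages. No member was called in either RNA, and WT and KO arrays overlapped for every probe set tested. In polyribosomal RNA, 0 of 17 probe sets were called by limma at an adjusted p under 0.05, against 0.017% of all 17687 tested, and 1 of 17 had an unadjusted p under 0.05, against 2.67% of all. Non-overlap between genotypes was seen for 0.119% of all probe sets. Total RNA gave 0 of 17 called, against 0.0392% of 17850 (0.0056% higher and 0.0336% lower, 7 in all and 4 with WT and KO of equal number as a block), with 0 of 17 at an unadjusted p under 0.05, against 5.0% of all, and 0.325% of all not overlapping. The member differences lay between -0.36 and 0.39 in polyribosomal and between -0.17 and 0.09 in total RNA. The median half-width of their 95% intervals was 0.25 in polyribosomal and 0.16 in total RNA.

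Among the regulators, Atf4 differed between KO and WT by 0.13 (95% interval -0.08 to 0.35) in polyribosomal RNA and by 0.04 (-0.09 to 0.17) in total RNA. For Ddit3 the values were -0.01 (-0.22 to 0.20) and -0.09 (-0.27 to 0.09). These intervals leave room for changes up to about 0.35, and a p above the threshold does not show equal levels. Psat1 differed by -0.07 (-0.28 to 0.14) and -0.02 (-0.13 to 0.08), and Asns by -0.03 (-0.26 to 0.20) and -0.02 (-0.15 to 0.10). Asns probe set 2 differed by -0.14 in polyribosomal RNA. The Psat1 difference in polyribosomal RNA was -0.16 without lysates numbered 4 and -0.0067 without those numbered 5. Psph differed by 0.16 (-0.05 to 0.37) in polyribosomal and 0.03 (-0.19 to 0.24) in total RNA.

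Phgdh had the lowest KO minus WT differences among the members in polyribosomal RNA. Its 4 probe sets differed from WT by -0.26, -0.34, -0.24 and -0.36, all below 0, and the dimmest had the single unadjusted p under 0.05 (limma, unadjusted p = 0.0451, adjusted p = 0.9999). They are annotated to the same gene, share their arrays and do not count as separate evidence. The brightest had a 95% interval of -0.68 to 0.16. Its difference was -0.43 without lysates numbered 4 and -0.13 without those numbered 5, so that 1 pair of arrays moves it about 2-fold. In total RNA the same 4 differed by -0.11 to -0.04.

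Mthfd2 had the highest KO minus WT difference, 0.39 in polyribosomal RNA (95% interval -0.14 to 0.92, limma adjusted p = 0.9999), and 0.06 (-0.36 to 0.48) in total RNA. Probe set 2 differed by 0.17 in polyribosomal RNA. By the brightest probe set, KO lysate 5 held both of the highest KO arrays, 8.73 in polyribosomal and 7.24 in total RNA, and WT lysate 5 both of the highest WT arrays, 7.46 and 6.55. By probe set 2, KO lysate 5 was again highest in both RNAs. The highest WT arrays of probe set 2 were lysate 4 in polyribosomal (5.41) and lysate 1 in total RNA (4.87). Without lysates numbered 5 the differences of the brightest probe set were 0.21 and -0.07. Shmt2 differed by -0.03 (-0.32 to 0.26) in polyribosomal RNA. Slc7a11, tested in total RNA alone, differed by -0.17 (-0.35 to 0.005).

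**Figure D3:**
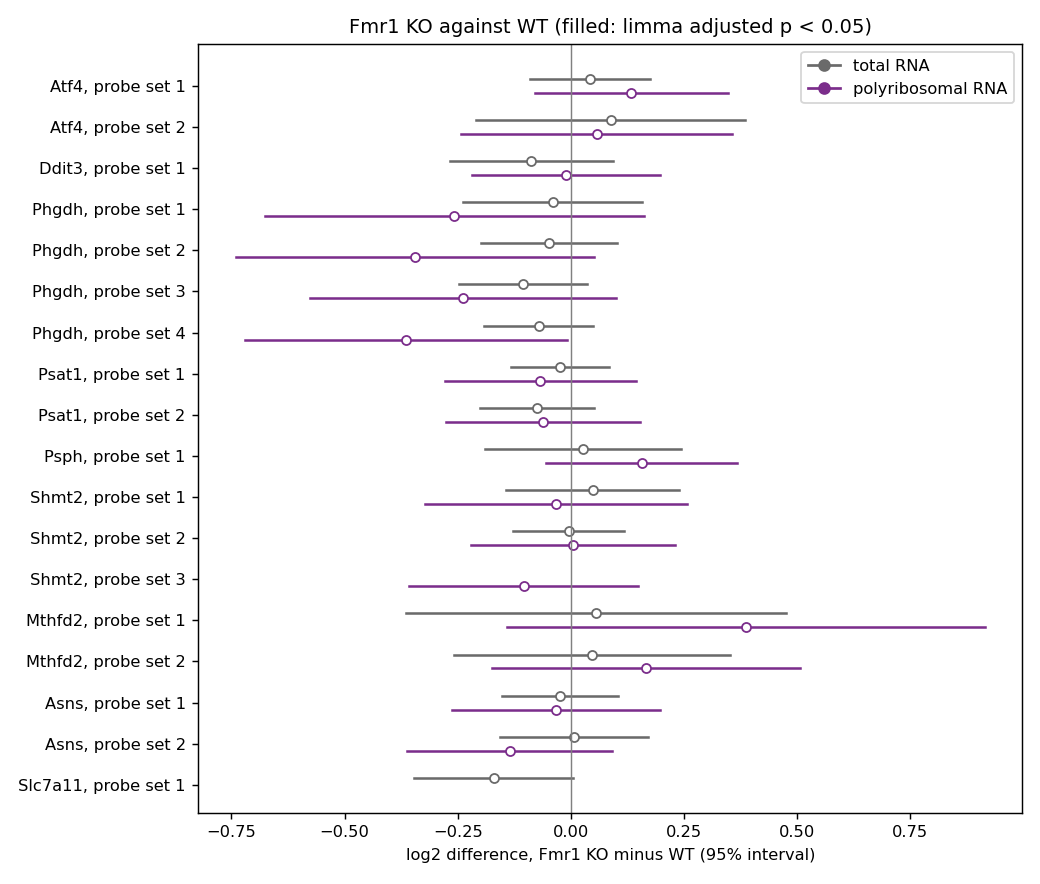
Log2 difference between Fmr1 KO and WT (x axis, with 95% intervals from limma) for the member probe sets tested (y axis), in total RNA (grey) and polyribosomal RNA (purple), where a filled point would mark adjusted p under 0.05. No point is filled, and the polyribosomal values run from -0.36 (Phgdh) to 0.39 (Mthfd2).

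The third question is whether loss of Fmr1 changed the difference between polyribosomal and total RNA itself. Across the 12 lysates, 0 of 18 member probe sets were called by limma, and 0.0% of all 18544 tested were called in either direction, with 442 (2.38%) at an unadjusted p under 0.05. Mthfd2 was the member with an unadjusted p under 0.05: its difference was 1.28 in KO and 0.95 in WT, a change of 0.33 (95% interval 0.05 to 0.62, unadjusted p = 0.0257, adjusted p = 0.999). Lysates of the genotypes overlapped, at 0.79 to 1.60 in KO and 0.74 to 1.19 in WT. Mthfd2 probe set 2 changed by 0.12 (-0.11 to 0.35, unadjusted p = 0.282). Phgdh changed by -0.22 (-0.60 to 0.17), a value that was -0.39 without lysates numbered 4 and -0.03 without those numbered 5. Psph changed by 0.13 (-0.07 to 0.33) and Atf4 by 0.09 (-0.13 to 0.31). The remaining brightest probe sets changed by -0.08 to 0.10.

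The members also varied between lysates. By brightest probe set, the array of KO lysate 5 total RNA stood highest of its group for 7 of the 9 tested genes. It was highest for 10 of the 18 member probe sets (55.6%), against 19.9% of all probe sets tested. Mthfd2 lay 1.15 above the mean of the other 5 KO total arrays, the second Atf4 probe set 0.74 above, Psph 0.60 above and Asns 0.26 above. Ddit3 (0.27) and Shmt2 (0.30) were also highest there, while Phgdh (0.11) and Slc7a11 (-0.16) were not. Among the other pathway genes, 21 of 71 (29.6%) were highest on that array. That array also had the highest choroid plexus and meninges marker sum of its group (11.32, the other 5 between 5.60 and 11.02). The sum of radial glia and progenitors was highest there too (11.77). Its sums were the lowest for astrocytes (12.59), neurons (15.18), microglia (7.19) and endothelium and pericytes (6.50). The blood sum was the highest but under the floor (3.28), and the remaining lists ranked 4 or 5 from the highest. The part of any list in the pattern was not tested. In WT total RNA, lysate 5 was the highest for 3 of the 9 genes by brightest probe set: Atf4, Asns and Mthfd2. It was highest for 5 of 18 member probe sets (27.8%), as was lysate 6, against 18.4% of all on lysate 5.

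On the matching polyribosomal array of KO lysate 5, Mthfd2 (8.73) and Psph (9.79) were again the highest of their group, but Phgdh (8.92), Psat1 (10.51) and Asns (11.39) were the lowest. WT polyribosomal lysate 4 was lowest for 11 of the 18 member probe sets (61.1%), against 27.7% of all probe sets, and for 40 of 71 other pathway genes (56.3%). KO polyribosomal lysate 5 was lowest for 8 of 18 (44.4%), against 29.0% of all, and for 38 of 71 other pathway genes (53.5%). WT polyribosomal lysate 4 was also highest for 28.4% of all probe sets, but for 1 of 18 member probe sets (5.6%). KO polyribosomal lysate 5 was highest for 24.5% of all and for 6 of 18 (33.3%). Within their groups these arrays had the lowest median correlation with the others, 0.9925 (WT) and 0.9933 (KO). Their departures were thus not limited to the members. By brightest probe set, each of these arrays was lowest for 4 of the 9 tested genes (44.4%). Leaving out lysates numbered 4 or 5 kept the call and direction of the brightest probe set of all 8 called genes between polyribosomal and total RNA in both genotypes.

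**Figure D4:**
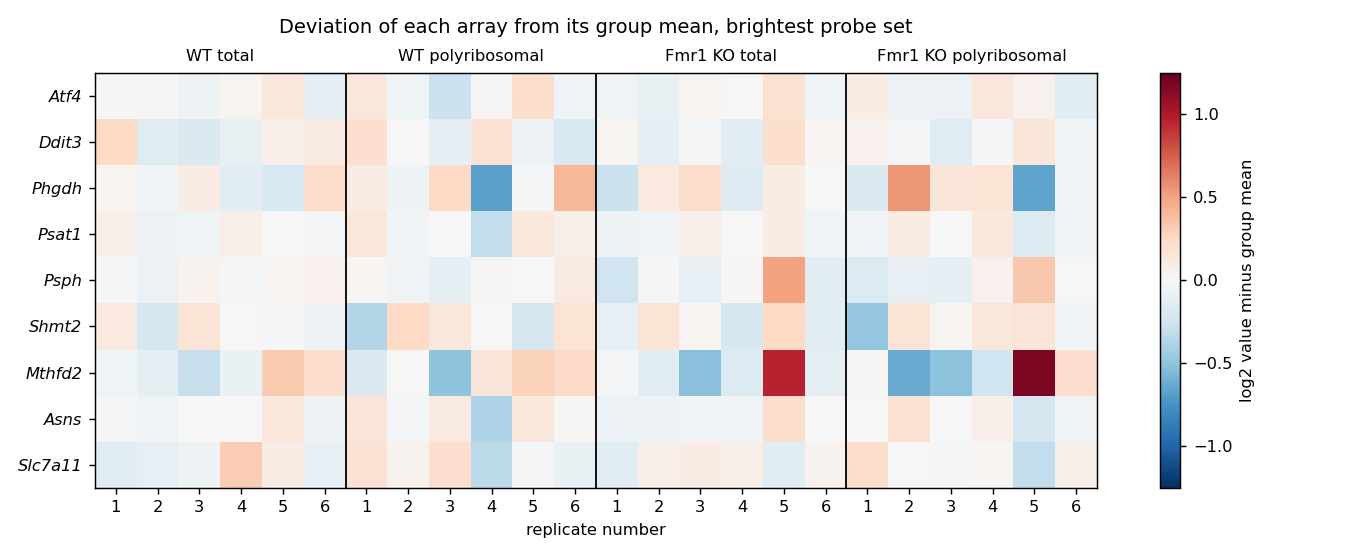
Deviation of each array (x axis: replicate number within the 4 groups) from its group mean on the log2 scale (colour) for the brightest probe set of the 9 tested genes (y axis). KO lysate 5 is the warmest column for Mthfd2 and Psph in both RNAs, and WT polyribosomal lysate 4 and KO polyribosomal lysate 5 are the coldest for Phgdh.

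The wider pathway was described with a list of 97 symbols in 6 groups, of which 86 are on the array under the symbol listed. By the brightest probe set, 71 were tested between polyribosomal and total RNA in WT, with 29 higher, 12 lower and 30 not called, and a median of 0.17. In KO, 69 were tested, with 25 higher, 12 lower and 32 not called, and a median of 0.05. Of all probe sets tested, 36.2% were called higher and 29.1% lower in WT, and 37.2% and 28.7% in KO, with a median of 0.07 in each. Against these, the list held calls in both directions, and in KO its calls higher were near the share of all. The group counts that follow are to be read against the same shares.

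Among sensor kinases and subunits of the eIF2 phosphatase, 5 of 8 were higher and 2 lower in WT, and 4 and 1 of 8 in KO. The adaptor Nck1 was higher by 0.76 in WT and 0.92 in KO, and Impact, an inhibitor of GCN2, by 0.58 and 0.52. Ppp1r15a (GADD34), which brings the phosphatase to eIF2 and is itself an ATF4 target, was lower (-0.42 and -0.24). Of 9 genes listed in the group of eIF2 and eIF2B, 3 were higher and 0 lower in each genotype. They were Eif2b1 (0.99 in WT, 1.21 in KO) and Eif2b2 (0.86 and 1.06), both regulatory subunits of the exchange factor, and Eif2d (0.66 and 0.89). Eif2d is a separate initiation factor and no subunit of either complex.

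Transcription factor partners and other stress factors gave 6 higher and 4 lower of 16 in WT and 6 and 3 of 15 in KO. Ddit4, an inhibitor of mTORC1, was higher by 1.32 in WT and 1.42 in KO, the largest difference of the whole list. Next in its group were Herpud1, of endoplasmic reticulum-associated degradation (0.92 and 0.99), and Jun (0.62 and 0.52). Amino acid transporters gave 2 higher and 3 lower of 13 in WT and 1 and 3 of 13 in KO. Slc38a2, a neutral amino acid transporter, was lower (-0.51 and -0.56), as was Slc7a1, a cationic amino acid transporter (-0.41 and -0.53). Slc3a2, the heavy chain with which Slc7a11 pairs, was higher by 0.39 in WT and not called in KO (0.24), a contrast in calls that was not itself called (0 of 71 pathway genes in the test of that change).

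The folate cycle and glycine cleavage gave 6 higher and 1 lower of 13 in WT, and 6 and 2 in KO. Gart, of purine synthesis, was higher by 0.98 and 0.74, and Gldc, of glycine cleavage, by 0.52 and 0.30. Mthfd2l, the paralog of Mthfd2, was lower (-0.88 and -0.87), opposite in sign to Mthfd2. Proline, glutamate, cysteine and other amino acid synthesis gave 7 higher and 2 lower of 12 in WT and 5 and 3 of 11 in KO. Pycrl, of proline synthesis, was higher by 1.04 and 1.29, the aspartate aminotransferase Got1 by 0.81 and 0.67, and the alanine aminotransferase Gpt2 by 0.79 and 0.88.

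**Figure D5:**
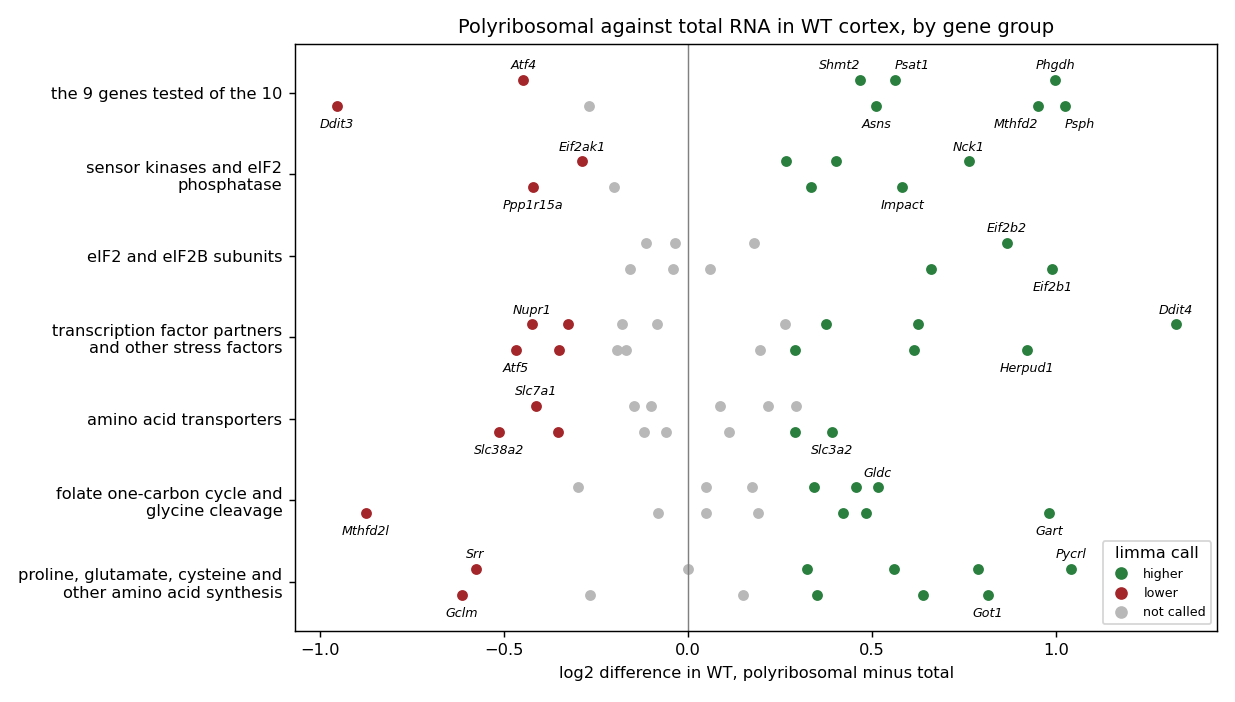
Log2 difference between polyribosomal and total RNA in WT (x axis) for the 9 tested members (top line) and the 71 tested genes of the 6 pathway groups (y axis, points staggered), green where called higher, red where called lower and grey where not called by limma. Names mark the called members and, in each other group, called genes among its 2 lowest and 2 highest values, and every group but that of eIF2 and eIF2B holds calls in both directions.

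Between genotypes, 0 of 68 pathway genes were called in polyribosomal RNA and 0 of 70 in total RNA by limma, with 2 and 4 at an unadjusted p under 0.05. The smallest p in polyribosomal RNA were those of Aldh1l2, a mitochondrial folate enzyme (-0.37, unadjusted p = 0.00825), Nfe2l2, the oxidative stress factor NRF2 (-0.32, unadjusted p = 0.0247), and the kinase Eif2ak1 (0.23, unadjusted p = 0.0530), each at a limma adjusted p of 0.9999. In total RNA they were those of Gart (0.18, unadjusted p = 0.0198), Pycrl (-0.19, unadjusted p = 0.0201) and the transporter Slc7a3 (-0.16, unadjusted p = 0.0443), at limma adjusted p from 0.951 to 0.982. None of these genes is a member, and none passed the test.

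Among 9434 genes tested in all comparisons, those whose values over the 24 arrays lay nearest to Phgdh, after each gene was centred on its own mean, were Pbxip1 (mean absolute difference 0.0916 log2 units), the Mediator subunit Med17 (0.126), the lamin gene Lmna (0.129), Trappc12 (0.131) and the lysosomal enzyme gene Arsa (0.133). All 5 were higher in polyribosomal RNA, by 0.86 to 1.06 in WT. The nearest member was Psat1 at 0.230, in place 288, and the median over all genes was 0.457. Nearest to Atf4 were the surface protein gene Cd24a (0.0856), the kinase genes Nlk (0.0928) and Dyrk2 (0.0952), Nkain2 (0.0932) and Tlcd3b (0.0956), all lower in polyribosomal RNA. Ddit3 stood in place 2920 at 0.257, against a median of 0.325. These are descriptions over arrays that share the 2 kinds of RNA and carry no test.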

How the data were processed

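Values are log2 intensities per probe set, made and deposited by the authors with GCRMA, per the submitters' processing notes. Whether all 24 arrays were normalized together and the software version are not given in the sources used here. Gene symbols come from the platform annotation, and promoter windows from RefSeq (GRCm38.p6).

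Differences were tested with limma 3.58.1 (lmFit, eBayes) in R 4.3.3, two-sided, on probe sets at or above a log2 value of 4 on 6 or more compared arrays, with Benjamini-Hochberg adjustment over all of them and a threshold of 0.05. Tables and plots used Python 3.11.15 and matplotlib 3.10.9. The code was tested on simulated data. Members, lists and tests were chosen with earlier results of these data known. All members are named. Of the other pathway genes, up to 3 called genes per group with the largest WT difference are named, and in each genotype comparison the 3 with the smallest p.

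The protocol takes polyribosomal and total RNA from the same lysate. Arrays of a genotype with equal replicate number were therefore taken as that lysate and blocked, although the sample titles do not state the match. The correlation of the deviations of such a pair from its group means was between 0.0211 and 0.525 (WT) or between 0.156 and 0.474 (KO). In WT, 5 of 6 polyribosomal arrays correlated best with the total array of their number, but only 2 of 6 total arrays did so in return. In KO these counts were 6 and 5 of 6. The labels tie no replicate number to a littermate pair, and genotypes were compared unpaired. For WT and KO arrays of a number the correlation was between -0.137 and 0.625 (polyribosomal), and between 0.133 and 0.532 (total), where every pair was above 0.1. The alternatives were no filter or a floor of 6, median centring, quantile normalization, an intensity trend, the block, each lysate left out, 1 probe set per gene, and no _x_at or _s_at probe sets. The last of these leaves no probe set for Phgdh. The number of arrays limits the precision.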

Additional observations from a re-analysis of the deposited data

Results flagged for a closer look

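In 11 of 72 groups of 6 arrays checked over the 18 tested member probe sets, the highest or lowest array lay far from the other 5, by a criterion that chance meets in about 1 in 20 groups. In Fmr1 KO total RNA, lysate 5 was that array for 5 probe sets: Mthfd2 at 7.24 and, by its second probe set, 5.42, the second Atf4 probe set at 8.46, Psph at 8.80 and Asns at 11.31. In WT total RNA, lysate 5 was high for Asns (11.25). WT polyribosomal lysate 4 was low for both Asns probe sets, at 11.25 and 9.95. The others were WT polyribosomal lysate 3, low for the second Atf4 probe set (6.55), KO polyribosomal lysate 2, high for the second Asns probe set (10.41), and KO polyribosomal lysate 1, low for Shmt2 (5.12). Probe sets of a gene share their arrays, so these are not independent.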

How the results depend on the processing

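Between polyribosomal and total RNA, the brightest probe sets of the 8 called members had 94 alternative values in each genotype, counted over the 8 together. All kept their direction and call. Ddit3 and Shmt2 were too dim to be tested with a floor of 6. The alternative without _x_at or _s_at probe sets is not among the 94, since it takes other probe sets for some genes. With a floor of 6 the member probe sets called higher were 8 in WT and in KO, and with 1 probe set per gene 6 in each, since fewer were tested. Genes of the pathway list called lower in WT were 7 with a floor of 6. Without each lysate in turn, 13 to 14 member probe sets were called higher in WT and 11 to 13 in KO, where Shmt2 probe set 3 was not tested with 5 lysates. Without the lysate as a block, 13 were higher and 4 lower in WT, Slc7a11 joining at -0.27 (adjusted p = 0.0400), and 13 and 3 in KO. With WT and KO of equal replicate number treated as a block, 0 members were called between genotypes in either RNA or in the change of the difference, and calls over all probe sets in total RNA fell from 7 to 4. Median centring moved the median of all probe sets in WT from 0.07 to 0.11. Uncalled values changed sign when a lysate number was left out, and the cause was not tested. Between genotypes in polyribosomal RNA, Ddit3 ran from -0.056 to 0.028, Asns from -0.12 to 0.034 and Shmt2 from -0.11 to 0.0091. In total RNA, Phgdh ran from -0.097 to 0.018, Psat1 from -0.047 to 0.0023, Psph from -0.068 to 0.072, Shmt2 from -0.028 to 0.093 and Mthfd2 from -0.072 to 0.12. In the change of the difference, Asns ran from -0.11 to 0.076, Psat1 from -0.14 to 0.034, Shmt2 from -0.15 to 0.011 and Slc7a11 from -0.018 to 0.18. Slc7a11, Trib3 and the dimmer Shmt2 probe sets lie at or under the floor, where signal over background limits what can be measured.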
